A study of Mus musculus with 12 samples.

Results

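The Snrpn imprinted cluster lies on mouse chromosome 7 and is represented here by 5 genes, Snrpn, Ndn, Magel2, Mkrn3 and Peg12, with the 4 Mb that hold them. The genes were chosen with the H3K9me3 difference between genotypes already known, so that difference is described without a test. Of 50654 regions in the deposited H3K9me3 table, 257 start within chr7:59000001-63000000, and 9 of these carry the symbol of a member gene: 7 carry Snrpn, 1 carries Ndn and 1 carries Magel2. Mkrn3 and Peg12 have no row of their own, and the other 248 regions form the neighbourhood. In the H3K27ac lists the same interval holds 14 to 41 peaks per library, of 11502 to 42712.

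The study profiled 2 histone marks in neural progenitors of C57BL/6 mice, taken from the ganglionic eminence at age E15.5 and grown as neurospheres. The knockout (KO) animals are labelled Nestin-KO and, from the title of the series, lack the H3K9 methyltransferase SETDB1. The controls are labelled WT, and the labels do not describe the deleted allele or the Cre line. Each library was made by native chromatin immunoprecipitation from 100000 nuclei, with 3 animals per genotype for each mark. For H3K9me3 the KO animals were 3 males, and the WT animals were 2 females and 1 male. For H3K27ac each genotype had 1 female and 2 males. Sex and the first number of the titles therefore cannot be told apart from genotype in the H3K9me3 comparison. All coordinates are in mm10.

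Genes of the Snrpn cluster are expressed mainly from the chromosome inherited from the father. The control element of the cluster lies at the start of Snrpn, and its DNA is methylated on the chromosome inherited from the mother. At methylated control elements of this kind the zinc-finger protein ZFP57 binds a methylated hexamer and, through its partner TRIM28, brings in SETDB1, which places H3K9me3. H3K9me3 is a mark of silenced chromatin, while H3K27ac is found at promoters and enhancers in use. Between Snrpn and Ube3a a long non-coding transcript carries arrays of small nucleolar RNA genes, and Ube3a itself is expressed from the maternal copy in neurons. None of the values below separates the parental copies, and with pooled nuclei a mark on fewer cells cannot be told apart from less mark per cell.

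The sequences before the starts of the member genes are shown because both marks were measured around them. They are the RefSeq promoters of GRCm38.p6, 250 bases up to the start and written on the strand of the gene, matched by symbol for all 5 members. The sequence at the most downstream Snrpn start runs 4 bases further so that a match across the start is whole. Capitals mark 2 motifs searched on both strands. The first is the ZFP57 hexamer TGCCGC, which appears here as its reverse complement. The other is GCATGCG, a core of the NRF1 type that was chosen after the sequences were seen.
Snrpn, most downstream start, chr7:60005196-60005449, minus strand: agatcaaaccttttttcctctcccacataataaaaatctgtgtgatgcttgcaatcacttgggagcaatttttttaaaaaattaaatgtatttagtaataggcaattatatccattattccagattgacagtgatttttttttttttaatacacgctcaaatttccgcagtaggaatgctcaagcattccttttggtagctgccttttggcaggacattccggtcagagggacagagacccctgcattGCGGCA
Snrpn, most upstream start, chr7:60450178-60450427, minus strand: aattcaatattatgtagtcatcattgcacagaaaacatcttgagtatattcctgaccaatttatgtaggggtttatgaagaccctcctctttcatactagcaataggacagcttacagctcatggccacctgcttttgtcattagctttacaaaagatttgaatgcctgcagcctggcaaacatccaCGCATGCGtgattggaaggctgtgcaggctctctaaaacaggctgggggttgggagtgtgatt
Ndn, chr7:62348027-62348276, plus strand: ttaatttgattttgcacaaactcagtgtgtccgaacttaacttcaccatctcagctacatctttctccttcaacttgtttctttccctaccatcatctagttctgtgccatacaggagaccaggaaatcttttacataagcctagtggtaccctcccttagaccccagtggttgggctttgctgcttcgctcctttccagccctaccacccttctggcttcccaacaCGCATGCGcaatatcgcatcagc
Magel2, chr7:62376729-62376978, plus strand: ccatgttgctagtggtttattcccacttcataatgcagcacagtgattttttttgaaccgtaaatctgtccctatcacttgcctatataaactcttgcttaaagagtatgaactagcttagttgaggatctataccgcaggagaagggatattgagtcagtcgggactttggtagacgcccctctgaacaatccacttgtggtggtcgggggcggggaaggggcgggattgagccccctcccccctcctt
Mkrn3, chr7:62420154-62420403, minus strand: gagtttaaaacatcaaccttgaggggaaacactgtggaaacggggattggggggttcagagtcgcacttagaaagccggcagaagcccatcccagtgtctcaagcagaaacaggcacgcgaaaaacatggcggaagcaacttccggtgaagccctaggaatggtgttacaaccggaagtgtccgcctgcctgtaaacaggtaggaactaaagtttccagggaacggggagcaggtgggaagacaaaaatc
Peg12, chr7:62464511-62464760, minus strand: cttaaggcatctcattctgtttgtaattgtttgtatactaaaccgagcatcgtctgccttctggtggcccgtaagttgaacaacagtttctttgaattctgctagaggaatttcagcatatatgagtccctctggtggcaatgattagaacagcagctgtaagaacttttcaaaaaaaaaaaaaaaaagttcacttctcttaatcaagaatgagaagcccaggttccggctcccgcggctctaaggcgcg

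RefSeq gives Snrpn 4 starts, at 60005199, 60047978, 60140225 and 60450177. The 3 upstream starts are near copies of each other, with 79.7% to 81.1% identical bases over their 300-base windows, and the most downstream start shares 47.3% to 50.2% with them. The hexamer TGCCGC occurred once among the members, on the reverse strand across the most downstream Snrpn start, and 11.6% of 32851 RefSeq promoters of this length hold it. The GCATGCG core stood at all 4 Snrpn starts and at Ndn, and 3.58% of promoters hold it. Each of these matches is a palindrome read on both strands, so the overlapping pair is counted at 1 place. A match describes letters and does not show binding. The most downstream Snrpn promoter holds 7 CpG dinucleotides in 300 bases, which equals the median of all promoters. The upstream ones hold 2 to 4, Magel2 10, Ndn 11, Peg12 12 and Mkrn3 15.

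H3K9me3 at the regions of Snrpn and Magel2 was listed higher in the KO progenitors, and at Ndn it was listed lower. Of the 9 member regions the authors' deposited table listed 8 as higher and 1 as lower at its adjusted p of 0.05, where 28.9% of all listed regions were higher and 71.1% lower. The KO and WT values did not overlap at 5 of the higher member regions and at the lower one, against 20.2% and 54.2% of all listed regions. Nearly every listed region passes this adjusted p, 36027 lower and 14615 higher of 50654. Passing it therefore sets no region apart, and only the direction varies. Because the genes were chosen on this difference, nothing is read from these shares. Each library's value is a normalised read count of the region, and which animal a listed value belongs to is not stated.

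Snrpn encodes a protein of the spliceosomal small nuclear ribonucleoproteins. The Snrpn region with the largest change, chr7:60080601-60081900, lies inside the gene. Its KO values were 43.3, 54.5 and 56.3 normalised reads, and its WT values were 19.5, 13.9 and 21.8. All 3 KO values lay above all 3 WT values, with means of 51.4 ± 7.04 and 18.4 ± 4.02 (SD, n = 3) and a deposited log2 fold change of 1.48. Per kilobase this is 39.5 ± 5.42 in KO and 14.2 ± 3.09 in WT. The listed values correspond to 17, 125 and 67 reads in KO and to 11, 17 and 30 in WT.

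At 3 other Snrpn regions the groups did not overlap either. At chr7:60128201-60129400 the KO values were 30.6, 45.3 and 60.5 and the WT values 12.4, 29.5 and 23.9 normalised reads, a log2 fold change of 1.05. The region chr7:60076401-60077700 had 40.8, 35.8 and 54.6 in KO and 35.5, 9.84 and 18.9 in WT, a log2 fold change of 1.03. Here the lowest KO value, 35.8, was next to the highest WT value, 35.5. The region chr7:60061101-60062300 had 56.0, 54.5 and 58.0 in KO and 35.5, 45.9 and 21.8 in WT, a log2 fold change of 0.71, with the tightest KO values of the gene (SD 1.75).

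At the remaining 3 Snrpn regions a WT value reached into the KO range. The region chr7:59993001-59994000, the only one downstream of the most downstream start, had 30.6, 22.7 and 47.1 in KO and 12.4, 27.1 and 12.3 in WT, a log2 fold change of 0.95. At chr7:60059501-60060600 the values were 40.8, 41.9 and 65.6 in KO and 3.55, 28.7 and 45.0 in WT, a log2 fold change of 0.94. The lowest of these WT values rests on 2 reads. At chr7:60134601-60135800 the values were 53.5, 31.4 and 53.8 in KO and 37.2, 39.4 and 9.42 in WT, a log2 fold change of 0.69. The WT SD at these 3 regions was 8.49, 20.9 and 16.7 normalised reads, and at the last of them 2 WT values lay above the lowest KO value.

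None of the 7 Snrpn regions lay at the control element. The listed region nearest to the most downstream Snrpn start was 11.2 kb away, and that nearest to the most upstream start was 16.5 kb away. Only selected regions are listed, so a place with no row may still carry the mark.

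Ndn encodes necdin, a MAGE-family protein of neurons, and its region chr7:62348701-62349700 begins 424 bases downstream of its start. The KO values were 28.0, 32.7 and 34.5 normalised reads and the WT values were 44.3, 64.0 and 39.9. All KO values lay below all WT values, with means of 31.7 ± 3.33 and 49.4 ± 12.8 (SD, n = 3) and a deposited log2 fold change of -0.64. This direction depends on the scaling. Median-ratio scaling, which sets the median ratio of each library over the listed regions to 1, moved log2 fold changes up by a median of 0.79, and the Ndn value became 0.24. This scaling assumes that most listed regions do not change, while the deposited table lists 71.1% of them as lower. It therefore takes out a shift shared by most listed regions, and which scaling is nearer to the true levels was not tested.

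Magel2 encodes a MAGE-family protein that regulates ubiquitin ligases on endosomes. Its region chr7:62381901-62383100 lies 4.92 kb from its start. The KO values were 45.9, 30.5 and 60.5 normalised reads and the WT values were 24.8, 26.3 and 26.8. The WT values were close together, with a mean of 26.0 ± 1.03 against 45.6 ± 14.996 in KO (SD, n = 3), and all KO values were above them. The deposited log2 fold change was 0.81, opposite in direction to Ndn under the deposited scaling and 1.64 under median-ratio scaling.

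Mkrn3 encodes a makorin RING-finger protein, and Peg12 is a paternally expressed gene of the FRAT family. The nearest listed region to the Mkrn3 start carried no gene symbol, lay 2.45 kb away and had a log2 fold change of 0.81. That of Peg12 lay 9.11 kb away at 0.88.

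**Figure D1:**
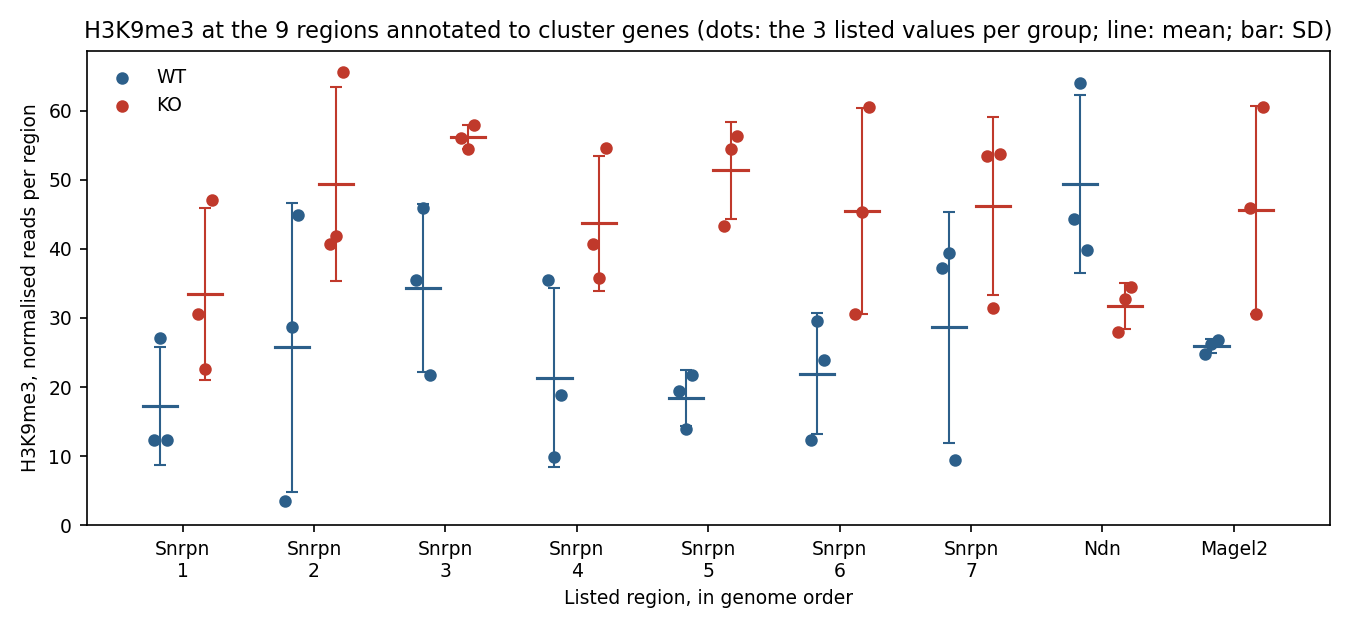
Normalised H3K9me3 reads at each of the 9 regions annotated to Snrpn (numbered 1 to 7 in genome order), Ndn and Magel2. Dots are the 3 listed values of a genotype, the line is their mean and the bar 1 SD; under the deposited scaling the KO mean is above the WT mean at all but Ndn, which turns under median-ratio scaling, and the groups overlap at Snrpn 1, 2 and 7.

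The spread between libraries was large against these differences. limma on log2(value + 1), fitted on all listed regions with Benjamini-Hochberg adjustment, passed 1 member region, the Snrpn region with a log2 fold change of 1.48. It passed 8 under median-ratio scaling, and limma-voom on whole reads passed 4, all of them higher. In the whole interval it passed 7 higher and 3 lower regions, against 1.24% and 14.9% of all listed regions. The listed regions are a selection in which nearly all pass the authors' threshold, so those shares are not of the genome. The limma counts are in the contrast that chose the genes and are given as a description. With limma they were 37 and 38 when the third listed KO value was left out, and 0 and 0 when 1 of the others was. The fits giving 0 and 0 passed 0 to 10 higher and 0 lower of all 50654 listed regions. The fit giving 37 and 38 passed 2986 higher and 30932 lower of them. The fall to 0 was therefore not confined to the interval.

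The neighbourhood showed the same direction as Snrpn over most of its length. The deposited table listed 202 of the 257 interval regions (78.6%) as higher in KO and 55 as lower, with a median log2 fold change of 0.76 against -0.94 over all listed regions. At the higher regions the median listed values were 53.5, 47.1 and 60.5 normalised reads in KO and 28.4, 30.4 and 31.2 in WT. Values did not overlap at 147 of the 202, beside 10226 of the 14615 higher regions of the whole table. Under median-ratio scaling, which moves values up, 25 of the 55 lower regions stayed negative.

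Up to and including Ube3a most regions were lower, and in each stretch beyond it most were higher. Before Ube3a, 10 of 11 regions were lower, of which 9 stayed negative under median-ratio scaling. The single region inside Ube3a (chr7:59294601-59296200) had 20.4, 31.0 and 42.9 normalised reads in KO and 79.8, 63.2 and 65.3 in WT, a log2 fold change of -1.14. Between Ube3a and Ipw, where the Snord115 array lies, 29 of 33 were higher. From Ipw to Snrpn, a stretch that includes Ipw itself and the Snord116 array, 41 of 46 were higher. Its median change, 0.49, was the smallest of any stretch in which most regions were higher. That stretch also had the highest H3K9me3 per kilobase in both genotypes, with medians over regions of 60.2 in KO and 49.8 in WT. Within Snrpn 19 of 22 were higher, from Snrpn to the Mir344 genes 54 of 67, among the Mir344 genes 14 of 18, from there to Ndn 6 of 10, between Ndn and Peg12 5 of 6, and distal to Peg12 33 of 43. The arrays and the Mir344 genes are repeated sequences, and the sources used here do not say how reads that match several copies were placed.

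Ipw, a non-coding transcript of the cluster, had 5 regions, all higher and already counted in the stretch from Ipw to Snrpn. The region over its start, chr7:59678001-59679900, had 104, 115 and 84.9 normalised reads in KO and 55.0, 70.5 and 68.9 in WT, without overlap. Of 17 named neighbours of the cluster and its flanks, 8 had a listed region, with 26 regions higher and 20 lower. Gabra5 and Gabrg3, which encode GABA-A receptor subunits, lie proximal to Ube3a. Gabra5 had 2 regions, both higher, and Gabrg3 had 17 higher and 14 lower. Herc2 and Nipa2, further proximal, had 2 lower regions each. Snhg14, Snurf, Atp10a and Snord64 had none, and Snord115 and Snord116 were not found by symbol in the reference used. The table names 5 regions of the Snord116 array by the symbol Snord116l2, chosen here after their values were seen. Of these, 4 were listed higher, at 0.42 to 0.76, and 1 lower, at -0.84 (0.050 under median-ratio scaling), and the groups overlapped at all 5.

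**Figure D2:**
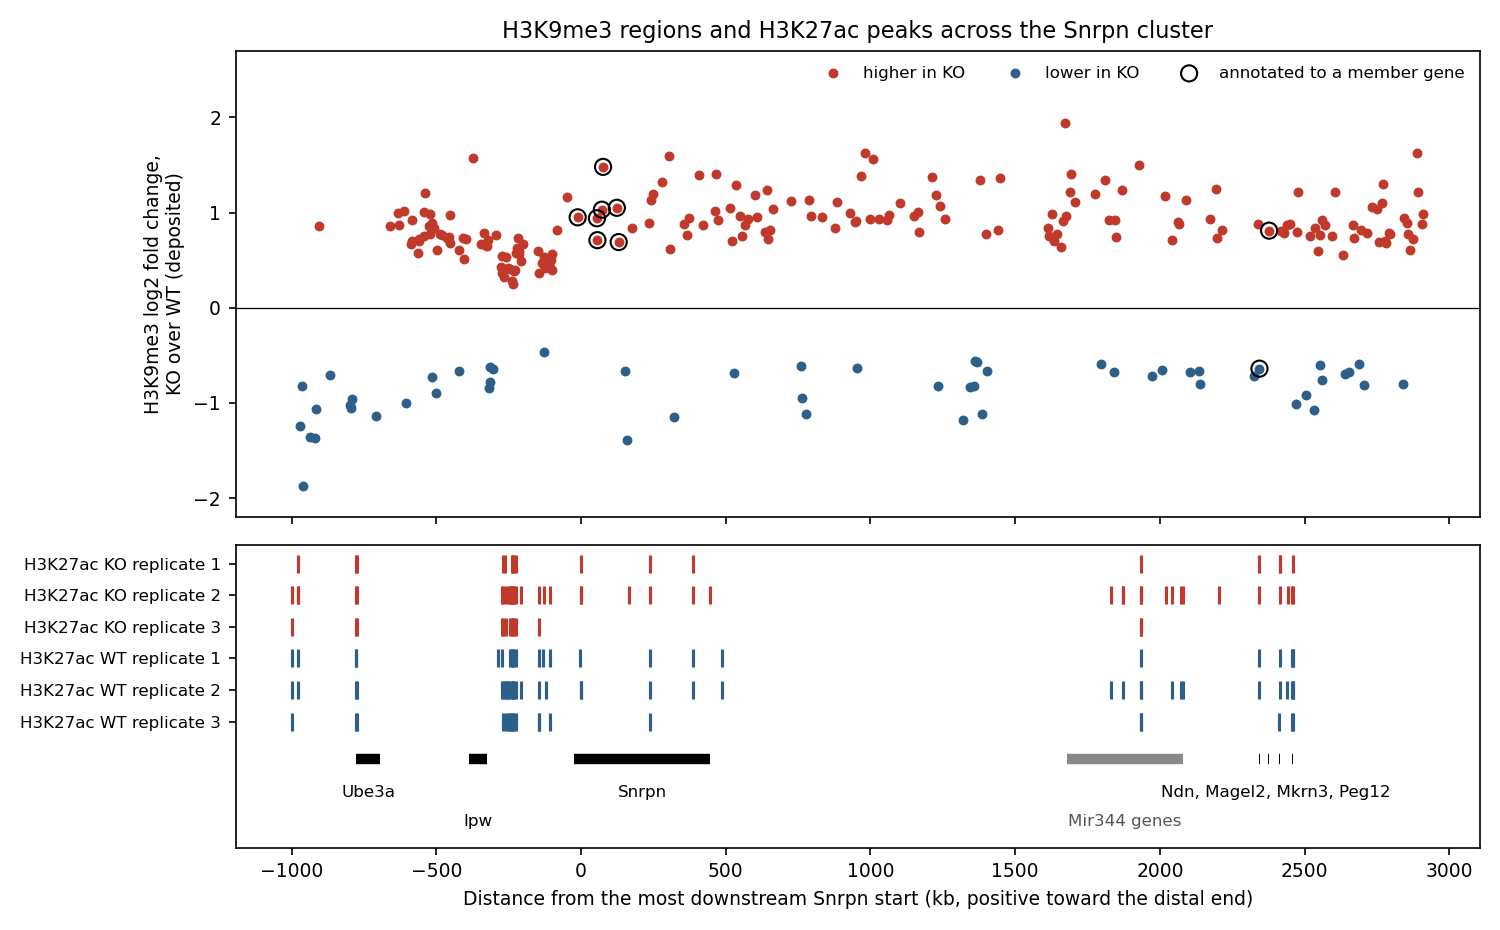
Upper panel: deposited H3K9me3 log2 fold change (KO over WT) of the 257 regions against the distance of their centre from the most downstream Snrpn start in kb, with the 9 member regions circled. Lower panel: H3K27ac peaks in each of the 6 libraries and the positions of the genes. Before Ube3a 10 of 11 regions are lower, and lower regions also lie among the higher ones further along; every library has H3K27ac peaks between Ipw and Snrpn, at places that only partly coincide.

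Changes were also listed at regions without a gene symbol. The largest rise among these, at chr7:61675401-61676400 in a gene desert before the Mir344 genes, was from 7.09, 7.38 and 13.1 normalised reads in WT to 38.2, 23.5 and 43.7 in KO, a log2 fold change of 1.94. The WT values there rest on only 4, 9 and 18 reads. The next 4 ranged from 1.56 to 1.63, and the groups did not overlap at any of the 5. The largest fall among regions without a symbol, at chr7:59043701-59046000 before Ube3a, was from 149, 111 and 135 in WT to 7.64, 26.6 and 74.0 in KO, a log2 fold change of -1.87. The KO values there had a mean of 36.1 ± 34.2 (SD, n = 3), so they differed widely from each other. They correspond to 3, 61 and 88 reads. Of the 5 largest such falls, at 4 of which the groups did not overlap, 4 lay before Ube3a and 1 lay within Snrpn, at chr7:60162801-60163800, with 10.2, 25.7 and 10.9 in KO and 44.3, 41.0 and 37.7 in WT. The KO values of this last region rest on 4, 59 and 13 reads.

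The interval was set beside the rest of chromosome 7 and beside other imprinted genes, all in the same contrast and without a test. Outside the interval 67.2% of 5227 regions on chromosome 7 were higher in KO, with a median log2 fold change of 0.65. This majority was not even along the chromosome. From 15 to 16 Mb 147 regions were higher and 13 lower, and from 73 to 74 Mb 0 were higher and 41 lower. The flanks differed from each other. In the 4 Mb on the proximal side 50 regions were higher and 44 lower, and in the 4 Mb on the distal side 4 were higher and 82 lower. At the distal limit of the interval, the last region inside had a log2 fold change of 0.98 and the next outside 1.55. At the proximal limit these values were -1.24 inside and -1.23 outside.

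Other imprinted genes went the other way from the interval in the deposited table, in the direction of most listed regions. Of 29 such genes, 16 had a listed region, and their 38 regions were all lower in KO. Their median log2 fold change was -1.40. Over all listed regions 71.1% were lower, with a median of -0.94. Kcnq1ot1, the non-coding RNA of another imprinted cluster on chromosome 7, had 3 regions with a median of -2.09. Peg3, also on chromosome 7, had 1 region at -1.30. Under median-ratio scaling 37 of the 38 stayed negative, beside 29701 of the 36027 lower regions of the whole table.

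**Figure D3:**
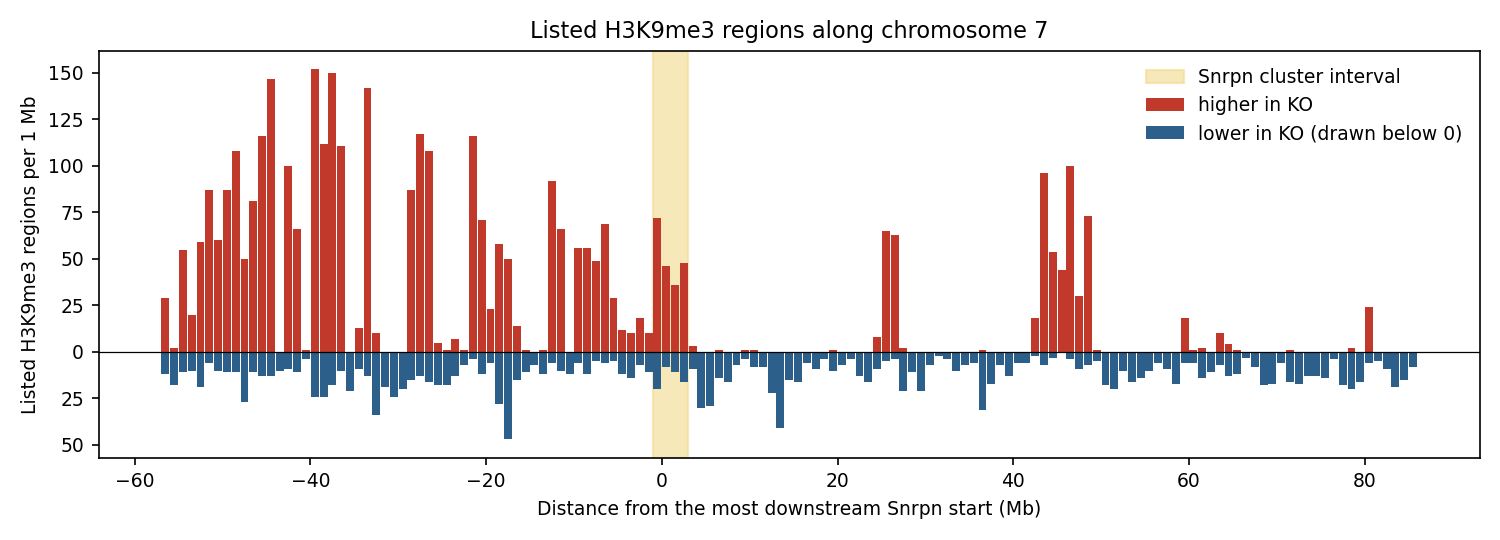
Number of listed H3K9me3 regions per 1 Mb of chromosome 7, higher in KO above the line and lower in KO below it, against distance from the most downstream Snrpn start in Mb. The shaded 4 Mb hold 202 higher and 55 lower regions, and the 4 Mb to its right hold 4 and 82.

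**Figure D4:**
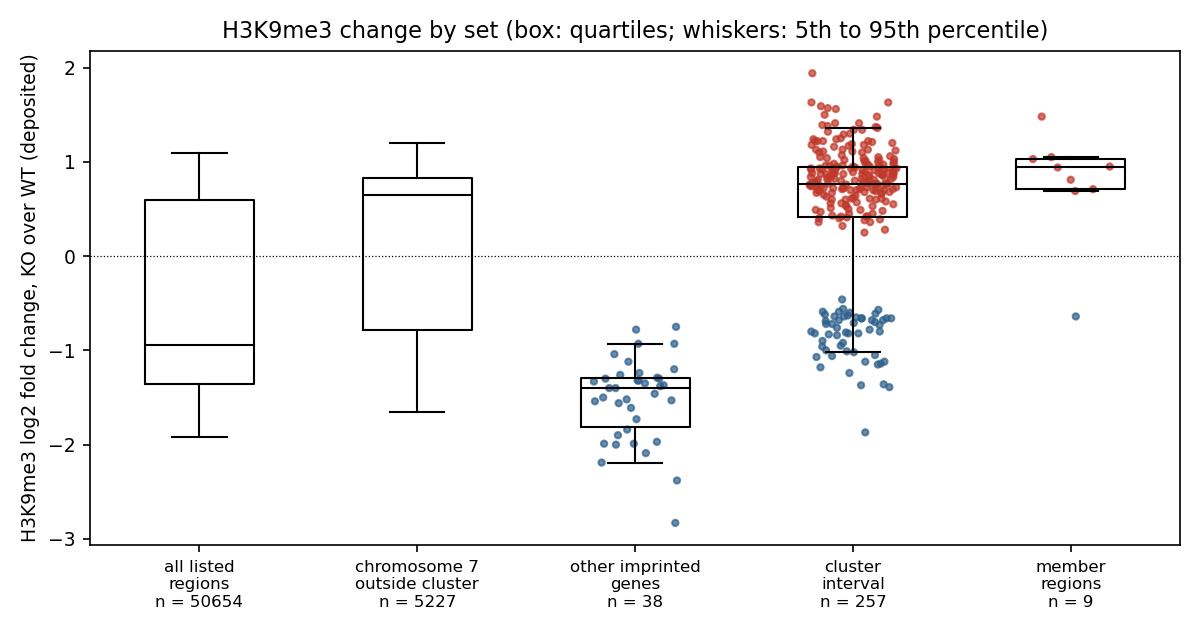
Deposited H3K9me3 log2 fold change of the listed regions in 5 overlapping sets (box: quartiles, whiskers: 5th to 95th percentile, dots: regions of the 3 smaller sets, red above 0 and blue below). The cluster interval has its median at 0.76 and the other imprinted genes have theirs at -1.40, beside -0.94 for all listed regions.

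Outside the interval, the 5 gene-annotated regions whose 6 values were closest to those of the leading Snrpn region were at Olfr114, Slc22a27, Cntnap5b, Gm4070 and Olfr630. Their Euclidean distance on the log2(value + 1) scale was 0.46 to 0.58 over the 6 libraries, among 13740 regions compared, and their log2 fold changes were 1.21 to 1.81.

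H3K27ac was not used to choose the genes, and no difference in its peaks larger than the spread between animals was found in the interval. The peak counts were 17, 41 and 14 in KO replicates 1 to 3 and 24, 37 and 21 in the WT ones, with means of 24.0 ± 14.8 and 27.3 ± 8.50 (SD, n = 3). The groups overlapped, and the difference of -3.33 peaks had p = 0.7 in an exact two-sided permutation test, in which 3 against 3 cannot go below 0.1. The peaks covered 4.44, 16.9 and 3.30 kb in KO and 5.89, 13.03 and 5.20 kb in WT, a difference of 0.156 kb (p = 1, exact permutation test). Replicate 2 was the highest of each genotype, and the replicate 3 lists were the shortest over the whole genome as well. Without both replicate 3 libraries, an alternative chosen after seeing the data, the difference was -1.5 peaks.

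Merged over libraries, the peaks formed 57 places. Of these, 7 were found in all 6 libraries, 33 in both genotypes and 20 in 1 library. No place had a peak in all 3 KO and no WT library, and none in all 3 WT and no KO library. Of the 7 shared places, chr7:59227984-59228555 lay upstream of the Ube3a start and chr7:59228701-59229939, as merged, covered it. Another 4 lay between Ipw and Snrpn, the stretch with the repeated Snord116 array, and 1 lay at the microRNA gene Mir344-2.

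The members differed in how often a peak stood within 1 kb of a start. Peg12 had such a peak in 2 KO and 3 WT libraries, Ndn in 2 and 2, Snrpn in 2 and 1, Mkrn3 in 2 and 1, and Magel2 in 0 and 0. KO replicate 3 had none at any member, and WT replicate 3 had one at Peg12 only. Over all RefSeq starts the share with a peak within 1 kb was 33.6% to 35.2% in the libraries of replicates 1 and 2 and 15.02% to 16.5% in those of replicate 3. Ube3a had one in all 6 libraries.

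At the members the peaks stood on the transcribed side of the start. All 20 peaks within 1 kb lay downstream, by 3 to 963 bases, 0 lay upstream and 0 lay over a start. They are repeated calls of different libraries at the same few starts of Snrpn, Ndn, Mkrn3 and Peg12, so they are not independent. Per library, 8.64% to 26.0% of all starts had a peak within 1 kb upstream and 9.49% to 30.1% had one downstream. Only 1.64% to 9.70% had one over the start. These shares count starts and not peaks. At Ube3a a peak stood upstream in all 6 libraries, and each library also had one downstream or over the start. At the most downstream Snrpn start, whose sequence is shown above with the hexamer, the nearest peak lay 85 bases downstream in KO replicate 1, 147 in KO replicate 2 and 103 in WT replicate 2. At the most upstream Snrpn start, with its GCATGCG core, only KO replicate 2 had a peak, 52 bases downstream. At Ndn the nearest peaks lay 89 and 108 bases downstream in KO and 75 and 39 in WT. The authors' fold enrichment of the member peaks ranked from the 7.53 to the 93.5 percentile of their own lists, so they included weak and strong peaks.

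**Figure D5:**
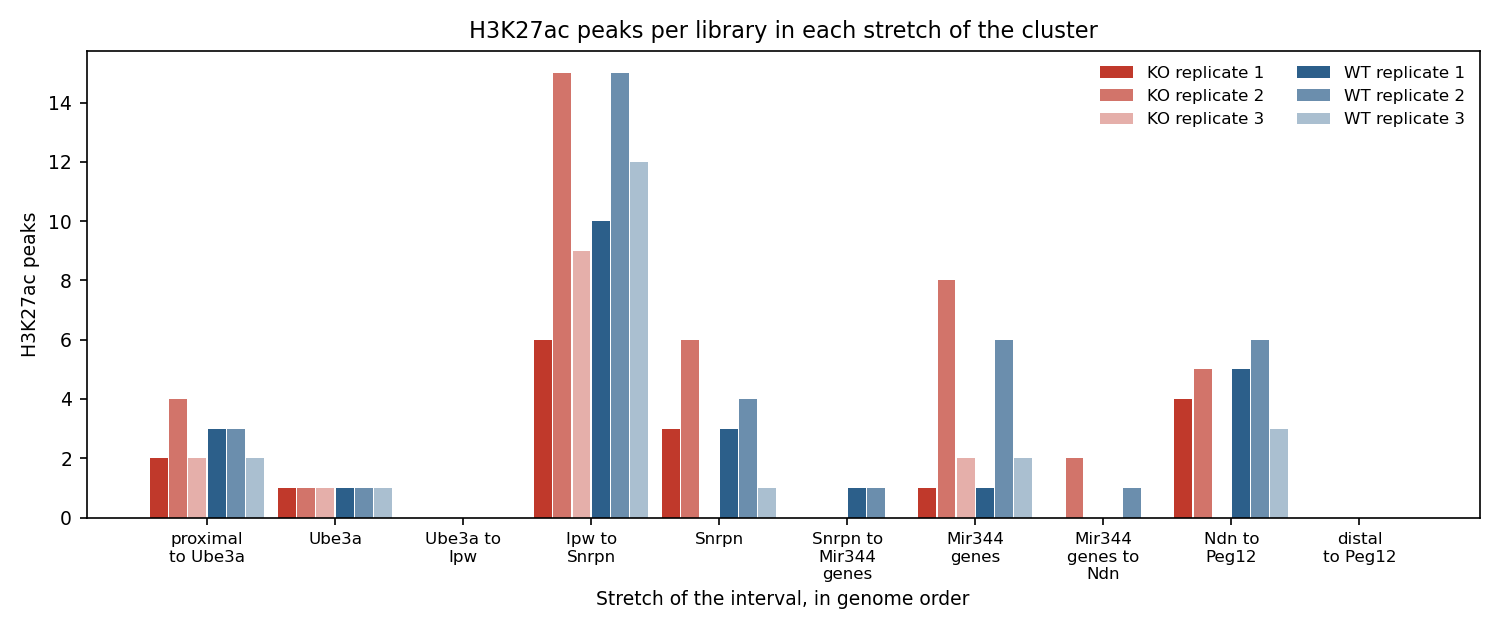
Number of H3K27ac peaks per library in each stretch of the interval, KO in red and WT in blue, replicates 1 to 3 from dark to light. The stretch between Ipw and Snrpn holds 6 to 15 peaks in every library, and those from Ube3a to Ipw and distal to Peg12 hold 0.

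Both marks met mainly between Ipw and Snrpn. This stretch holds the repeated Snord116 array, and how reads matching several copies were placed is not stated for either mark. That stretch held 6, 15 and 9 peaks in KO and 10, 15 and 12 in WT, while from Ube3a to Ipw and distal to Peg12 no library had a peak. Over the interval 12 of the 257 H3K9me3 regions were overlapped by a peak in at least 1 library. Of these, 10 were listed as higher and 2 as lower in KO. In the whole interval 78.6% were listed as higher, and from Ipw, included, to Snrpn 41 of 46, so nothing is read from this count. Of the 12, 10 lay between Ipw and Snrpn. The others were the region at Mir344f, overlapped in KO replicate 2 and WT replicate 2, and the Ndn region, overlapped by 37 bases in KO replicate 2. The marks were measured in different libraries, so they are not shown to share a nucleosome, a parental copy or a cell.

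The Mir344 genes, a family of microRNA genes between Snrpn and Ndn, are described by their H3K27ac peaks and the seeds they share. This comparison was not among the planned ones, and a peak at a gene does not show anything about its seed. Mature sequences from RefSeq are shown with the seed (bases 2 to 8) in capitals for the 2 seed groups that are compared.
mmu-miR-344-3p: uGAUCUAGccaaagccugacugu
mmu-miR-344c-3p: uGAUCUAGucaaagccugacagu
mmu-miR-344d-3p: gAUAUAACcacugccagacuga
mmu-miR-344e-3p: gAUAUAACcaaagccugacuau

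The seed of the former pair belongs to 3 genes, Mir344, Mir344-2 and Mir344c, and that of the latter pair to 4, Mir344d-1, Mir344d-2, Mir344d-3 and Mir344e. Mir344-2 had an H3K27ac peak within 1 kb in all 6 libraries, and Mir344 and Mir344c had one in 1 KO and 1 WT library each. The peaks at Mir344 and Mir344c came only from KO replicate 2 and WT replicate 2, so Mir344-2 alone had peaks in the other libraries. The 4 genes of the other seed had none in any library. Mir344f and Mir344i had a peak in 1 KO and 1 WT library each, and Mir344b, Mir344g, Mir344h-1 and Mir344h-2 had none. The seeds compared are those of the 3p sequences. On the 5p side the seed GUCAGGC belongs to 7 genes. It is found in Mir344, Mir344-2 and Mir344c, which had peaks. Mir344b, Mir344d-1, Mir344d-3 and Mir344g, which had none, hold it as well, so the contrast depends on the side chosen. The 3 genes of the seed GAUCUAG also lie next to each other, so seed and position cannot be told apart. Peaks over the whole Mir344 stretch numbered 1, 8 and 2 in KO and 1, 6 and 2 in WT, so the libraries of replicate 2 stood apart in both genotypes.

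Marker genes were checked for an H3K27ac peak in or within 1 kb of the gene. Of 10 markers of ganglionic eminence progenitors, 7 had a peak in at least 1 library, Nes in all 6, while Dlx2, Dlx5 and Gsx2 had none. Of markers of other cells, 0 of 3 for excitatory neurons, 3 of 3 for the oligodendrocyte lineage, 2 of 2 for astrocytes, 1 of 3 for microglia and blood, 1 of 3 for vascular cells and 1 of 2 for fibroblasts had a peak in at least 1 library. Among these, the vascular marker Pecam1 had a peak in all 6 libraries, and Mbp (oligodendrocyte lineage) and Aqp4 (astrocytes) in 5 each. Gfap had a peak in 2 KO and 0 WT libraries, and Dlx1 in 0 KO and 2 WT libraries. The part of the cell makeup in the values at the cluster was not tested.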

How the data were processed

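H3K9me3 and H3K27ac were profiled in 6 libraries each. Bowtie2 2.3.4.3, MACS2 and mm10 are named in the submitters' processing notes. The sources used here do not name the tool that compared H3K9me3 between genotypes. The authors deposited 1 H3K9me3 table of selected regions with 3 normalised read counts per genotype, per the file headers. Its group means were deposited as a signal and its enrichment as a ratio. Its log2 fold changes (KO over WT) and p-values per region are the authors' own. The deposited H3K27ac peak lists, 1 per library, hold for each peak a score, its fold over background and its -log10 q, used for ranks and filters inside each list.

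The listed values were whole multiples of 1 step per library (100% of low values within 0.1 reads), which gave reads. The listed regions held 11.0 to 36.4 megareads per library. For H3K27ac the depth is unknown.

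Member genes, gene lists and named genes (the members, 17 neighbours, 29 other imprinted genes, the 5 regions without a symbol with the largest change in each direction and the 5 most alike regions) were chosen with earlier results of these data known. The values of 1 neighbour are not reported here. limma 3.58.1 (R 4.3.3) was fitted with a mean-variance trend and tested on simulated data. Peaks were assigned by overlap of at least 1 bp with Python 3.11.15, pandas 2.3.3 and numpy 2.4.6. Pairwise identity was computed with biopython 1.88. Genotypes were compared by exact permutation over animals. Alternatives covered thresholds, pseudocounts, scaling, left-out libraries and distances. No genome of the build was used, so sequences come from RefSeq tables.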

Additional observations from a re-analysis of the deposited data

How the results depend on the processing

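With an absolute log2 fold change of at least 1, the interval kept 16 lower and 54 higher H3K9me3 regions. Under median-ratio scaling with an absolute value of at least 0.5 it kept 5 lower regions, and the Ndn value reversed to 0.24. The 8 other member regions kept their direction under every alternative run. limma counts of 3 lower and 7 higher interval regions became 16 and 47 with a pseudocount of 10. They became 1 and 199 under median-ratio scaling, and 33 and 101 with limma-voom on whole reads. Over all 50654 listed regions the counts moved too. There 7551 lower and 627 higher became 21441 and 3346, 3023 and 14041, and 29385 and 7133 in the same order. Leaving out 1 listed value gave 0 to 38 lower and 0 to 37 higher interval regions with limma. Over all listed regions it gave 0 to 30932 lower and 0 to 2986 higher. Where both interval counts were 0, 13 to 20 lower and 47 to 67 higher interval regions had an unadjusted limma p of 0.05 or less. The cause of these shifts was not tested.

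The H3K27ac difference of -3.33 peaks ranged from -11.8 to 1.67 with 1 library left out and turned positive without KO replicate 1 (0.167), KO replicate 3 (1.67) or WT replicate 2 (1.5). The difference in covered length, 0.156 kb, ranged from -4.17 to 2.65 kb and turned negative without KO replicate 2 (-4.17), WT replicate 1 (-0.918) or WT replicate 3 (-1.26). With a replicate block by the first number of the titles the differences were -4.25 peaks (p = 0.667, exact permutation test) and -0.247 kb (p = 1, exact permutation test). No paired analysis was possible for H3K9me3 because the listed values carry no animal. Summed over the 5 members, 15 pairs of gene and library had a peak within 1 kb of a start, 0 had one over a start, and 8 had one at a -log10 q of at least 5. The unknown depth of the H3K27ac libraries limits what an absent peak shows.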
